A study of Homo sapiens and Mus musculus with 56 samples.

Results

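The genes described here are targets of the transcription factor ATF4 together with carriers that move amino acids into cells. They are a set of 32 symbols, ATF4 itself included, found as the probe sets annotated to these symbols on the human arrays and to their mouse orthologues on the mouse arrays, with 1 probe set per gene, the one with the highest mean. On the human arrays 31 of the 32 had a probe set with a single symbol, among 19775 human genes, and on the mouse arrays 31 of 32 did, among 18193 mouse genes. GPT2 in the human lines and Pycr1 in the mouse cells were not analysed here. A filter on dim probe sets then kept 31 of the genes in RS4;11 and SEM and 30 in each of REH, the mouse cells and MOLM-13, and removed VLDLR in REH, SLC7A3 in MOLM-13 and Inhbe in the mouse cells.

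Total RNA of 5 leukaemia cell models was measured on 56 Affymetrix arrays, 44 human and 12 mouse. The fusion of KMT2A with AFF1 is carried by RS4;11 and SEM, a pair of human lines of B-cell precursors. MOLM-13, from a human acute myeloid leukaemia, carries KMT2A-MLLT3, the mouse leukaemia cells were transformed with MLL-AF9, and REH, another human B-precursor line, has no KMT2A fusion. RS4;11, SEM and REH cells were given a combination of EPZ004777 and MI-2-2, EPZ004777 alone at 3 µM, MI-2-2 alone at 10 µM, or DMSO, each for 6 days. MOLM-13 and mouse cells were given the same 4 kinds of treatment for 4 days, with both compounds at 3 µM. EPZ004777 inhibits the histone methyltransferase DOT1L, MI-2-2 inhibits menin, and each compound was taken to have its single dose in the combination, which the labels do not state apart. Groups had 3 arrays, except for RS4;11 DMSO and for SEM combination, MI-2-2 and DMSO, which had 2. The design text calls the replicates biological, and each model is a single line or cell population. All cells grew in medium with 10% fetal calf serum, with 2 mM added L-glutamine for RS4;11, REH and MOLM-13 and 4 mM for SEM, and the mouse medium also held the cytokines interleukin-6, interleukin-3 and stem cell factor.

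When amino acids run short or unfolded proteins gather in the endoplasmic reticulum, kinases phosphorylate the translation factor eIF2α. Protein synthesis then slows while translation of the ATF4 mRNA rises, and ATF4, paired with other basic leucine zipper proteins such as CEBPG, switches on genes for amino acid uptake and synthesis, tRNA handling, and feedback regulators such as TRIB3 and DDIT3. Much of the control of ATF4 is translational, so its mRNA need not follow its protein, which arrays do not measure. In lymphoblastic leukaemia the pathway is known for asparagine synthetase, since the drug asparaginase removes the amino acid that this enzyme makes.

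ATF4 and its partners bind composite C/EBP-ATF elements, whose core was searched as TGATGNAA on both strands of RefSeq promoter windows (GRCh38.p14, 250 bases before to 50 after each start). Windows were at hand for 24 of the 32 genes. Of these, 9 genes (37.5%) held a match, namely ATF3, SLC1A4, ASNS, SLC3A2, SLC7A1, JDP2, CHAC1, CEBPG and SLC1A5, beside 1217 of 27305 genes in all (4.46%). Counted by window, matches lay in 9 of 42 windows of these genes (21.4%) and in 1270 of all 35116 (3.62%). The windows of CHAC1, whose fall on the combination was the largest of these genes in RS4;11 and SEM, and of ATF3 and SLC1A4, whose mouse orthologues changed most in the mouse cells, are shown from their first base to the start site, beside that of ATF4, which has no match. All windows shown are human. Capitals mark the match, which is on the opposite strand in CHAC1 and SLC1A4. A match describes these letters only, and is not evidence of binding. The set was chosen as ATF4 targets and amino acid carriers, so its share of matches is no independent evidence about these genes.
CHAC1, chr15:40953221-40953471, plus strand: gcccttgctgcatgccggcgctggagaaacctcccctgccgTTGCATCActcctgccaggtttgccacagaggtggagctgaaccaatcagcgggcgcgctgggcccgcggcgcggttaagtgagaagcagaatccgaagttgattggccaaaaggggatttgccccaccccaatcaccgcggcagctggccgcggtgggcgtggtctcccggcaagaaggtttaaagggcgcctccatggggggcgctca
ATF3, chr1:212565157-212565407, plus strand: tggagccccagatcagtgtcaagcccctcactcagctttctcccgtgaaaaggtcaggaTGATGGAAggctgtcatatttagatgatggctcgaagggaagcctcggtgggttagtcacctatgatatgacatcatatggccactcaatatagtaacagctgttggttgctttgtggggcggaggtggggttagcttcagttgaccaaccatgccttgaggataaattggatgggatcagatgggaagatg
SLC1A4, chr2:64989149-64989399, plus strand: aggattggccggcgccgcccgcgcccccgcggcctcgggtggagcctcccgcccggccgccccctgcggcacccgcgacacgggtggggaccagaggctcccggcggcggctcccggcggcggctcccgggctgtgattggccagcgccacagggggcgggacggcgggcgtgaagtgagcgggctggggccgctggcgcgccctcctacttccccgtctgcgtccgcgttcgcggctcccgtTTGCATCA
ATF4, chr22:39520309-39520559, plus strand: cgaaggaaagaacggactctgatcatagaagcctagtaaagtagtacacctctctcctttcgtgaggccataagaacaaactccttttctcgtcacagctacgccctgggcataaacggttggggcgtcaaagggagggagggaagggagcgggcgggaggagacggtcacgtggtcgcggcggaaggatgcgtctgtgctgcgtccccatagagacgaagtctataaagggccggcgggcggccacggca

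Values below are log2 signals, changes are differences of log2 means ± standard error (SE), and a gene is called higher or lower at a Benjamini-Hochberg adjusted p under 0.05 in limma, over all genes kept in that cell model. The number of arrays limits the precision. B lineage markers were above the dim filter on most arrays in RS4;11 and SEM (5 of 5), REH (4 of 5), the mouse cells (3 of 5) and MOLM-13 (2 of 5). Myeloid markers were above it in MOLM-13 (5 of 5), the mouse cells (6 of 6) and RS4;11, SEM and REH (3 of 5 each). The erythroid marker EPOR was above it on every human array. B lineage sums were 59.6 to 60.4 on the combination and 58.9 to 59.2 on DMSO in RS4;11. In SEM they were 58.1 to 58.2 and 56.8 to 57.3, and in MOLM-13 they overlapped. The T cell markers CD3E and CD3G were not above the filter on any array. The third T cell marker, CD3D, was above it on 12 of 12 MOLM-13 arrays and, as Cd3d, on 8 of 12 mouse arrays, with changes of 1.77 and 2.49 on the combination. T cell sums were 19.2 to 19.4 on the combination and 16.6 to 16.9 on DMSO in MOLM-13, 14.8 to 16.5 and 12.9 to 13.0 in the mouse cells, and overlapped in the other lines. The summed log2 signal of the myeloid markers reached 36.7 to 37.7 on the combination in SEM against 24.1 to 25.1 on DMSO, 31.1 to 31.5 against 28.4 to 28.8 in RS4;11, 63.6 to 63.7 against 56.6 to 57.2 in MOLM-13 and 75.1 to 75.9 against 56.7 to 64.6 in the mouse cells, with overlapping sums of 33.1 to 34.1 against 33.4 to 35.3 in REH. Of 3 stromal markers only the collagen gene COL1A1 was above the filter on most arrays of each human line but SEM, where COL1A2 was too, and their sum was 17.9 to 19.3 on the combination and 13.0 to 13.3 on DMSO in SEM, 14.3 to 14.7 and 13.27 to 13.955 in MOLM-13, and overlapped in RS4;11 and REH. COL1A1 by itself was higher on the combination in each human line, by 1.70 in RS4;11, 3.07 in SEM, 0.75 in REH and 0.65 in MOLM-13. The part of all these markers in the results was not tested. Array medians were 6.18 to 6.25 in MOLM-13 and 5.54 to 5.66 in the other human lines, so levels were not compared between MOLM-13 and those lines. Of the genes, 14 on the human arrays (ATF3, ATF5, DDIT4, ASNS, SLC7A5, SLC3A2, SLC7A1, SLC1A4, SLC38A2, SESN2, VLDLR, NUPR1, VEGFA and PYCR1) and 6 on the mouse arrays were read on probe sets ending in _s_at or _x_at, which may also bind other transcripts.

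**Figure D1:**
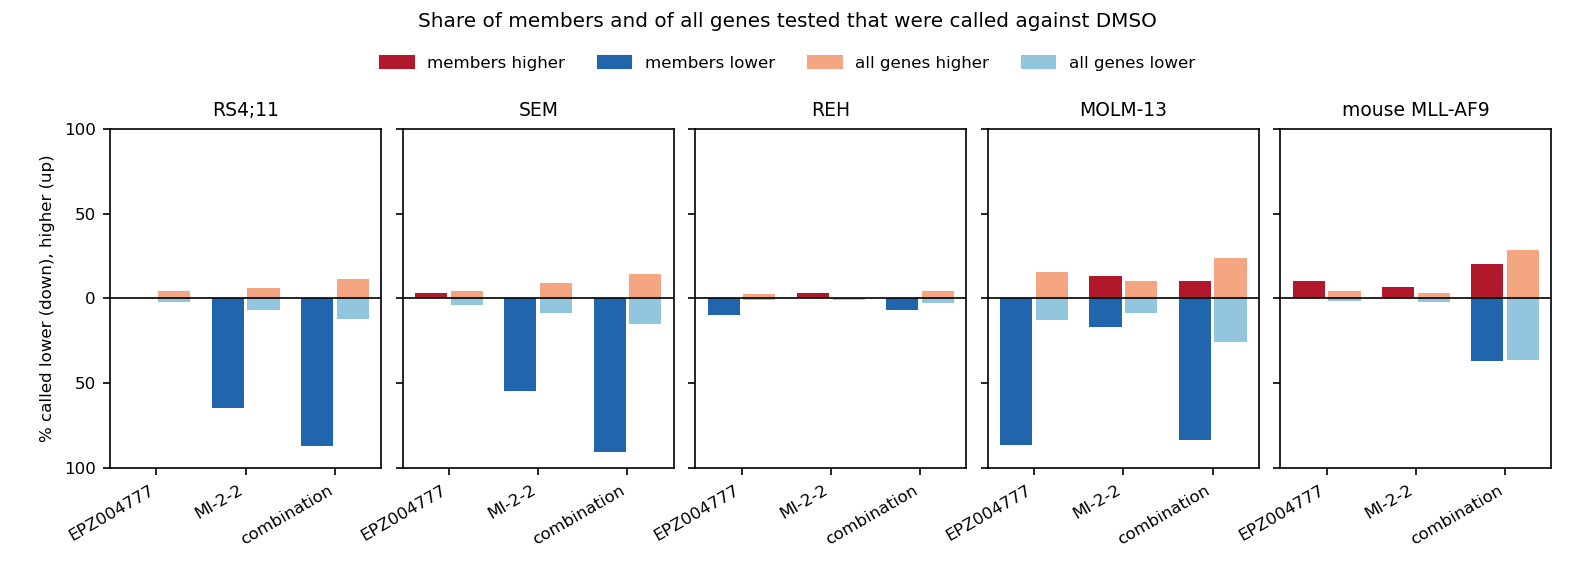
Percent of the ATF4 pathway genes (dark bars) and of all genes tested (light bars) called higher (up from 0) or lower (down from 0) against DMSO, for each treatment in each of the 5 cell models. On the combination the dark blue bars reach 27 of 31 genes in RS4;11, 28 of 31 in SEM and 25 of 30 in MOLM-13, beside 2 of 30 in REH and 11 of 30 in the mouse cells, where the light blue bar is of like height.

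On the combination most of these genes fell in both KMT2A-AFF1 lines. In RS4;11 the combination lowered 27 of 31 and raised 0, beside 12.4% of all genes called lower and 11.2% called higher, and the median change was -0.73 beside -0.04 for all genes. In SEM 28 of 31 fell and 0 rose, beside 15.2% and 14.3% of all genes, with a median change of -0.93 beside -0.02. Of these, 25 genes fell in both lines, beside 5.39% of all genes tested in both. Those not called were ASNS, CBS, NUPR1 and XPOT in RS4;11 and DDIT4, NUPR1 and SLC1A4 in SEM. In these bulk samples fewer cells of a type and less RNA per cell cannot be told apart. The actin 3' minus 5' signal was 1.83 to 1.93 on the combination and 1.83 to 1.89 on MI-2-2 in SEM, against 2.41 to 2.48 on DMSO, so in SEM this measure and these treatments cannot be told apart: with it as a covariate, added after the data were seen, 0 of the 31 were called for the combination, 3 had an unadjusted p under 0.05, and the median SE over all genes was 0.528 instead of 0.104. In that covariate fit 14 of all 13967 genes tested in SEM were called for the combination, so the count of 0 cannot set these genes apart from the rest. In RS4;11 the actin measure was 2.22 to 2.52 on the combination and 2.40 to 2.42 on DMSO.

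**Figure D2:**
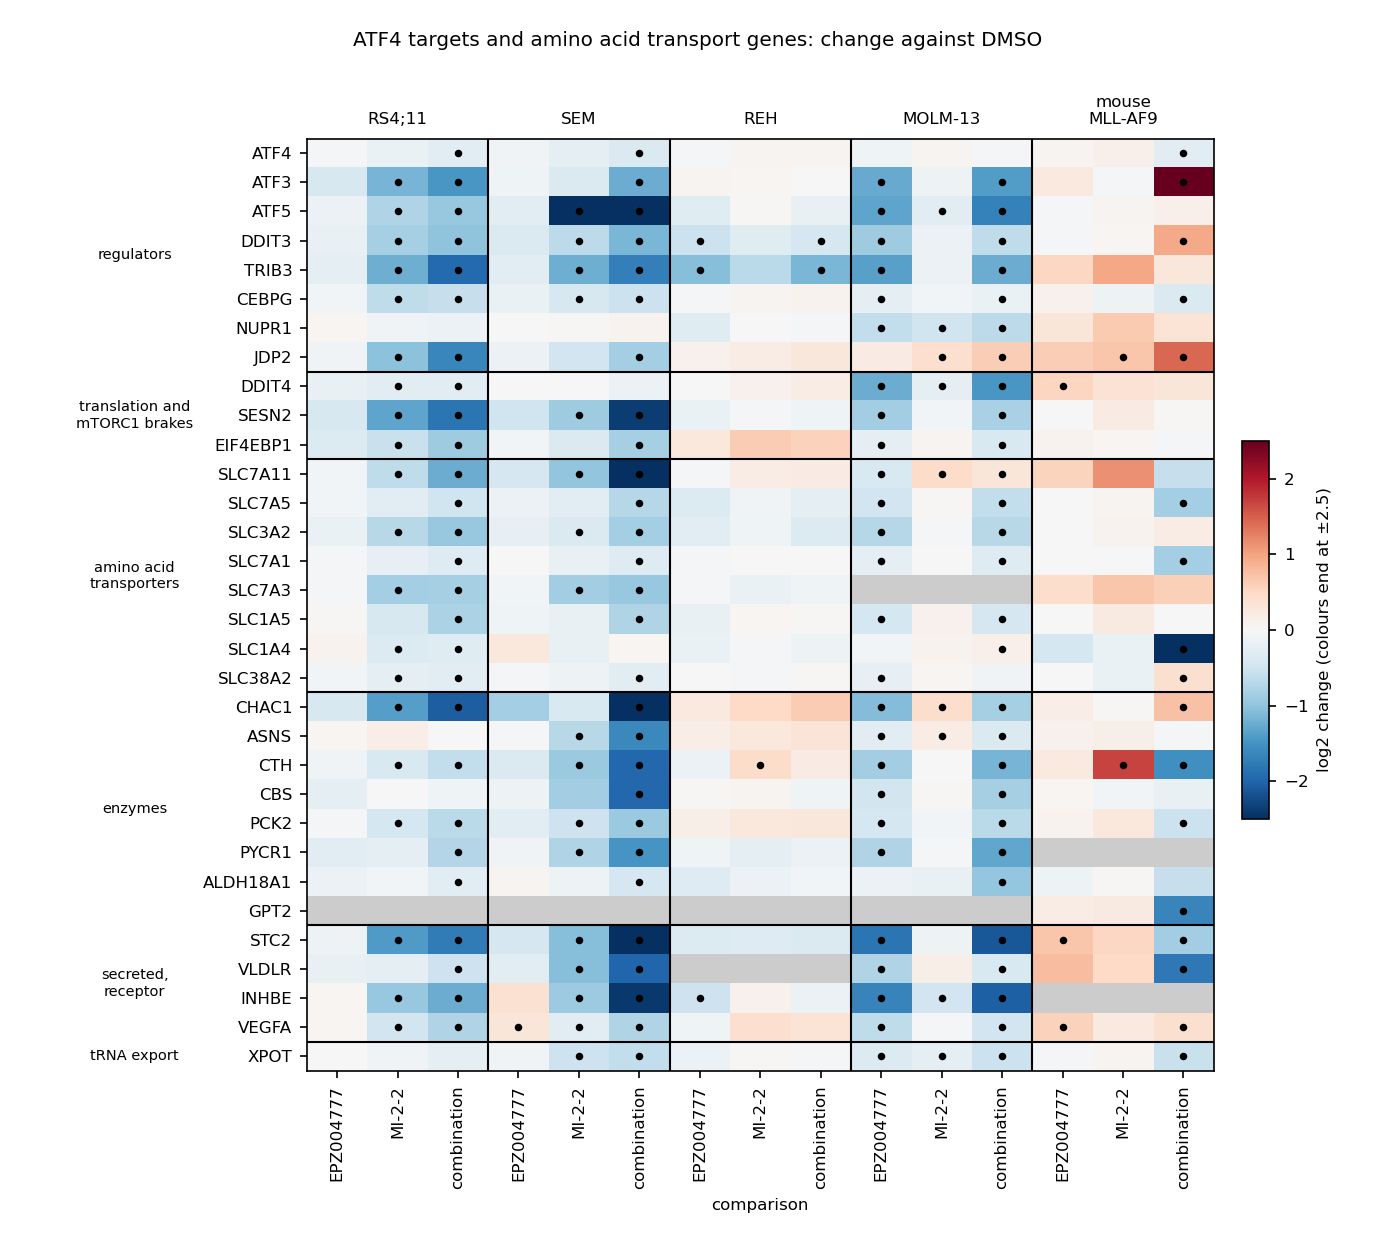
Log2 change against DMSO of each gene (rows, grouped by role) on each treatment (columns) in the 5 cell models, with blue for lower, red for higher, dots for calls and grey for genes not analysed or removed by the filter. The combination columns of RS4;11, SEM and MOLM-13 are mostly blue with dots, the REH columns are pale with 6 dots in all, and the mouse combination column holds 6 genes called higher and 11 called lower.

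Among the regulators, the mRNA of ATF4 itself moved little. Its log2 signals were 13.46, 13.44 and 13.49 on the combination and 13.74 and 13.70 on DMSO in RS4;11, where it fell with a change of -0.26 ± 0.06 (SE, adjusted p = 0.00758). In SEM they were 13.39 and 13.46 on the combination and 13.80 and 13.76 on DMSO, a change of -0.36 ± 0.06 (SE, adjusted p = 0.00428). All arrays on the combination lay below all DMSO arrays in both lines, and the RS4;11 call was lost without DMSO replicate 2 (adjusted p = 0.0637). TRIB3, a pseudokinase that feeds back on ATF4, read 7.07, 6.79 and 6.66 on the combination in RS4;11 and 8.81 and 8.75 on DMSO, a 3.84-fold fall (change -1.94 ± 0.15 (SE, adjusted p = 6.07e-06)), and in SEM its change was -1.72 ± 0.11. ATF5, a related leucine zipper factor, had signals of 8.50 and 8.79 on the combination in SEM and 11.95 and 11.94 on DMSO. No array of either group came near the other, and the fall was 9.84-fold (change -3.30 ± 0.15 (SE, adjusted p = 3.68e-06)), beside -0.94 ± 0.07 in RS4;11. ATF3, a stress-induced factor of the same family, fell in both lines (-1.46 ± 0.19 in RS4;11, -1.23 ± 0.13 in SEM), as did DDIT3, the stress factor also called CHOP (-1.01 ± 0.13 in RS4;11 and -1.15 ± 0.11 in SEM). JDP2, a repressor of the family, fell, with a change of -1.62 ± 0.20 in RS4;11 and -0.84 ± 0.18 in SEM, where the call was lost without combination replicate 3 or DMSO replicate 3 (adjusted p up to 0.0705). CEBPG, a dimer partner of ATF4, fell, with a change of -0.58 ± 0.06 in RS4;11 and -0.53 ± 0.07 in SEM, and NUPR1, a small stress-induced chromatin protein, was not called (changes -0.14 ± 0.13 in RS4;11 and 0.08 ± 0.09 in SEM).

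SESN2, a leucine sensor that restrains the growth kinase mTORC1, was among the strongest falls. Its signals in RS4;11 were 7.54, 7.58 and 7.69 on the combination and 9.42 and 9.43 on DMSO, a 3.55-fold fall (change -1.83 ± 0.15 (SE, adjusted p = 6.32e-06)), and its change in SEM was -2.37 ± 0.23. EIF4EBP1, which encodes a repressor of cap-dependent translation, fell in both lines (-0.89 ± 0.09 in RS4;11 and -0.84 ± 0.12 in SEM). DDIT4, another brake on mTORC1, fell, with a change of -0.27 ± 0.06 in RS4;11, a call lost without DMSO replicate 3 (adjusted p = 0.0838), and had a change of -0.14 ± 0.11 in SEM.

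All 8 amino acid carriers fell in RS4;11 and 7 of 8 in SEM. SLC7A11, the cystine importer of system xc-, read 7.66 and 7.44 on the combination in SEM and 10.20 and 10.59 on DMSO. The groups were far apart, and the fall was 7.20-fold (change -2.85 ± 0.17 (SE, adjusted p = 1.56e-05)), beside -1.24 ± 0.08 in RS4;11. The chains of the large neutral amino acid exchanger fell together: SLC3A2, the heavy chain, with a change of -0.95 ± 0.18 in RS4;11 and -0.86 ± 0.10 in SEM, and SLC7A5, the light chain LAT1, with -0.50 ± 0.09 in RS4;11 and -0.71 ± 0.09 in SEM. SLC1A5, a glutamine and neutral amino acid exchanger, fell, with a change of -0.78 ± 0.18 in RS4;11 and -0.75 ± 0.11 in SEM. The cationic amino acid carriers SLC7A3 (-0.84 ± 0.09 in RS4;11 and -0.95 ± 0.11 in SEM) and SLC7A1 (-0.33 ± 0.06 in RS4;11 and -0.32 ± 0.07 in SEM) were lower too. The other 3 SLC7A1 probe sets changed by -0.57 to -0.78 in RS4;11 and -0.70 to -1.11 in SEM. SLC38A2, a sodium-coupled neutral carrier, had the smallest called changes (-0.25 ± 0.06 in RS4;11 and -0.27 ± 0.06 in SEM), and the neutral carrier SLC1A4 changed by -0.31 ± 0.06 in RS4;11 and by 0.05 ± 0.08, not called, in SEM. The other SLC1A4 probe sets changed by -0.41 to 0.10 in RS4;11 and by -0.43 to -0.08 in SEM. Without DMSO replicate 3 the RS4;11 calls of SLC1A4, SLC1A5 and SLC38A2 were lost (adjusted p = 0.0554, 0.0904 and 0.0701), SLC38A2 also without DMSO replicate 2, and the SEM calls of SLC7A1 and SLC38A2 were lost without single arrays of the combination or DMSO (adjusted p up to 0.0693 and 0.0790).

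CHAC1, an enzyme that breaks down glutathione, had the largest fall of these genes in both lines. In RS4;11 it read 6.18, 5.94 and 6.64 on the combination and 8.37 and 8.27 on DMSO, a 4.19-fold fall (change -2.07 ± 0.20 (SE, adjusted p = 3.23e-05)). In SEM it read 5.11 and 5.54 on the combination and 8.78 and 8.87 on DMSO, an 11.3-fold fall (change -3.49 ± 0.26 (SE, adjusted p = 4.65e-05)). In neither line did any array on the combination reach a DMSO array. ASNS, asparagine synthetase, was called in SEM and not in RS4;11. Its signals in SEM were 10.52 and 10.64 on the combination and 12.19 and 12.19 on DMSO, a change of -1.61 ± 0.13 (SE, adjusted p = 7.67e-05). In RS4;11 they were 8.87, 8.48 and 8.93 on the combination and 8.72 and 8.84 on DMSO, which overlap (change -0.02 ± 0.15). CBS and CTH, which make cysteine from homocysteine, had larger changes in SEM. CTH fell, with a change of -0.62 ± 0.10 in RS4;11 and -1.96 ± 0.14 in SEM, while CBS changed by -0.11 ± 0.12, not called, in RS4;11 and by -1.97 ± 0.34 in SEM. PCK2, the mitochondrial enzyme that makes phosphoenolpyruvate, fell, with a change of -0.67 ± 0.11 in RS4;11 and -0.93 ± 0.10 in SEM. Of the proline synthesis enzymes, PYCR1 fell, with a change of -0.73 ± 0.15 in RS4;11 and -1.47 ± 0.11 in SEM and ALDH18A1 with -0.28 ± 0.09 in RS4;11 and -0.42 ± 0.06 in SEM. Without DMSO replicate 3 the RS4;11 calls of PYCR1 and ALDH18A1 were lost (adjusted p = 0.0554 and 0.312), and that of ALDH18A1 was also lost without any of 7 other arrays. The difference between RS4;11 and SEM, which grew in different media, was not tested.

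Secreted and surface products followed. STC2, a secreted glycoprotein hormone induced by stress, fell, with a change of -1.75 ± 0.13 in RS4;11 and -2.75 ± 0.13 in SEM, and INHBE, an activin subunit, with -1.23 ± 0.13 in RS4;11 and -2.41 ± 0.19 in SEM. Another STC2 probe set changed by only -0.36 in RS4;11 and by -3.05 in SEM, so the size of the RS4;11 fall depends on the probe set. VEGFA, the angiogenic growth factor, fell in both (-0.75 ± 0.13 in RS4;11 and -0.76 ± 0.07 in SEM), and VLDLR, a lipoprotein receptor, fell, with a change of -0.52 ± 0.09 in RS4;11 and -1.99 ± 0.15 in SEM. XPOT, which exports tRNA from the nucleus, was not called in RS4;11 (-0.22 ± 0.08) and fell, with a change of -0.61 ± 0.06 in SEM.

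**Figure D3:**
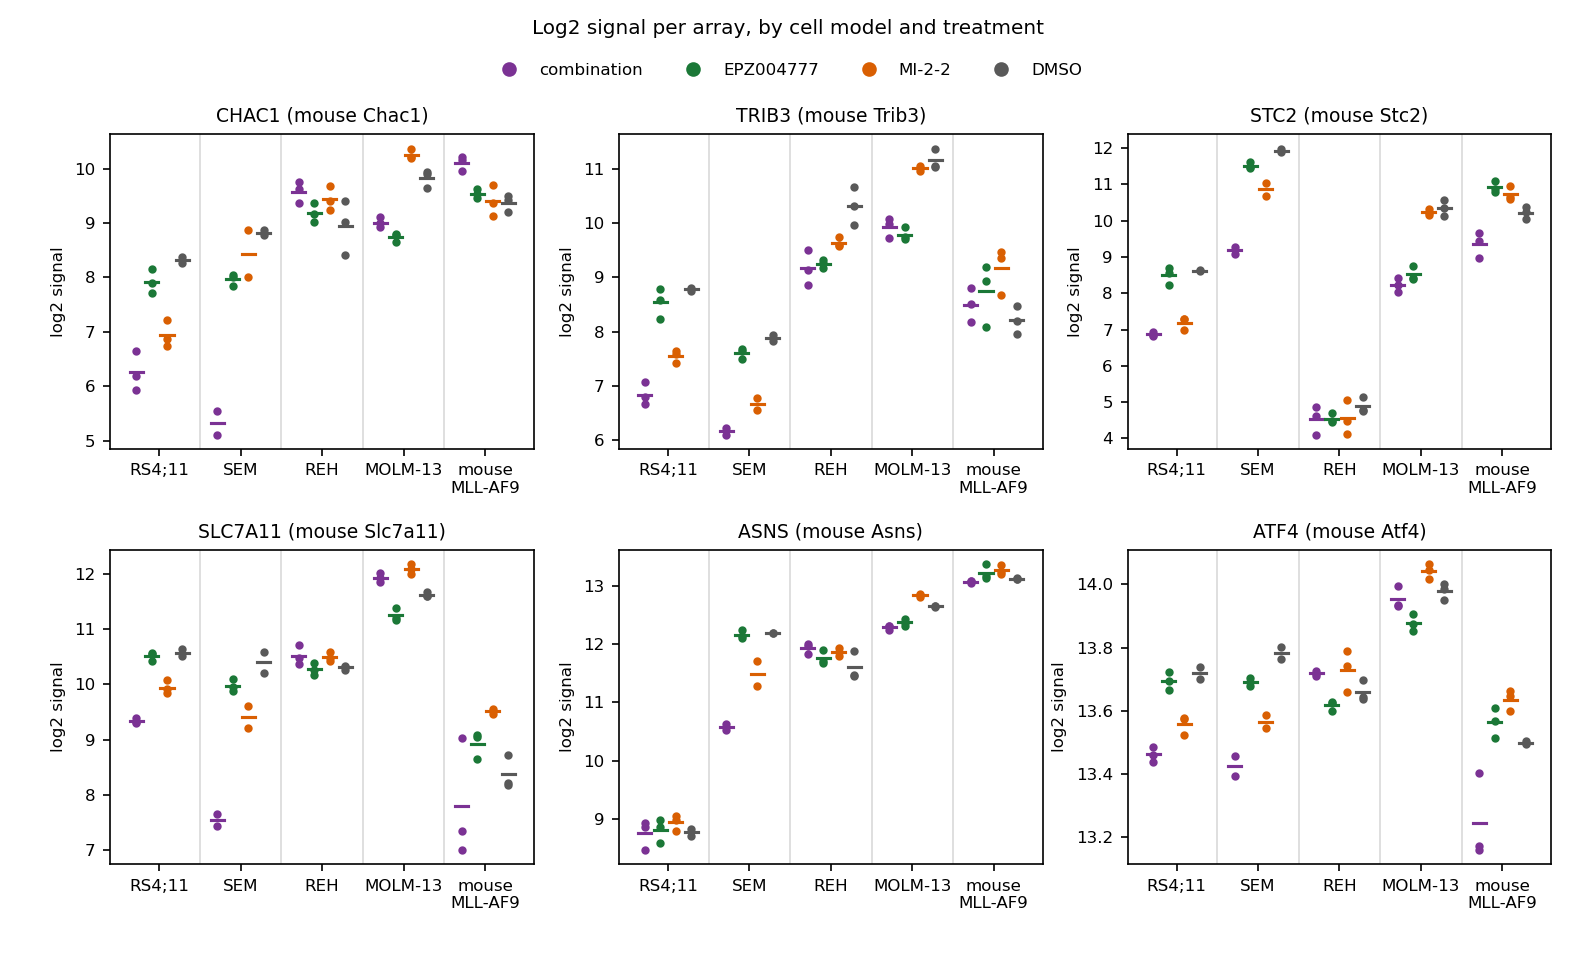
Log2 signal of 6 genes on each array (points) with the group mean (bar), for combination, EPZ004777, MI-2-2 and DMSO in each cell model; levels are read within a model. CHAC1, TRIB3, STC2 and SLC7A11 sit lowest on the combination in RS4;11 and SEM, and ASNS was called lower there in SEM and not in RS4;11, where its arrays overlap those on DMSO.

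MI-2-2 alone also lowered many of the genes in RS4;11 and SEM, while none was called lower there on EPZ004777 alone. On MI-2-2 20 of 31 fell and 0 rose in RS4;11 (6.84% and 5.89% of all genes), with a median of -0.43 beside -0.03; without DMSO replicate 3 the count was 12. In SEM 17 fell and 0 rose (8.47% and 9.32% of all genes), with a median of -0.48 beside 0.01, and the count was 11 or 10 without DMSO replicate 2 or 3. The largest falls in RS4;11 were those of STC2, at 7.30, 7.29 and 6.98 on MI-2-2 and 8.61 and 8.63 on DMSO (change -1.43 ± 0.13 (SE, adjusted p = 6.41e-05)), and of CHAC1, at 6.74, 6.87 and 7.22 on MI-2-2 (change -1.38 ± 0.20 (SE, adjusted p = 0.00133)). In SEM ATF5 read 8.98 and 9.38 on MI-2-2 (change -2.77 ± 0.15 (SE, adjusted p = 2.88e-05)) and TRIB3 6.55 and 6.78 on MI-2-2 and 7.82 and 7.95 on DMSO (change -1.22 ± 0.11 (SE, adjusted p = 0.000265)). None of these MI-2-2 arrays reached the DMSO range. CHAC1 in SEM was not called, at 8.01 and 8.87 on MI-2-2 and 8.78 and 8.87 on DMSO, which overlap (change -0.38 ± 0.26). With the actin measure as a covariate 0 of the 31 were called for MI-2-2 in SEM, and 1 had an unadjusted p under 0.05. In that fit 0 of all 13967 genes were called for MI-2-2, so the count cannot set these genes apart from the rest.

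EPZ004777 alone gave 0 calls among the 31 genes in RS4;11 by limma, where 3 had an unadjusted p under 0.05 and where the count was 1 without combination replicate 3, EPZ004777 replicate 1 or MI-2-2 replicate 2, beside 2.08% of all genes called lower and 4.51% called higher. In SEM VEGFA alone was called, higher, beside 4.55% of all genes called higher and 4.12% called lower. By limma 11 of the 31 had an unadjusted p under 0.05 there. Of the 31 SEM changes 26 lay below 0, beside 61.5% of all genes, and the median was -0.11 beside -0.05. VEGFA read 10.96, 10.96 and 11.06 on EPZ004777 and 10.69 and 10.69 on DMSO, a change of 0.30 ± 0.06 (SE, adjusted p = 0.0247), with no overlap. Leaving out EPZ004777 replicate 3, DMSO replicate 2 or DMSO replicate 3 ended that call (adjusted p up to 0.147), and without either MI-2-2 array the count was 5. The changes of the 31 genes on EPZ004777 spanned -0.40 to 0.09 in RS4;11 and -0.85 to 0.38 in SEM. The comparisons with DMSO share the DMSO arrays.

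Set against the single compounds, the combination was lower than EPZ004777 for 25 of 31 genes in RS4;11 (9.56% of all genes lower, 10.0% higher) and for 28 in SEM (11.5% and 15.4%), and higher for 0 in either line. It was lower than MI-2-2 for 7 in RS4;11 (3.91% of all genes lower, 6.76% higher) and for 17 in SEM (1.93% and 2.79%), and higher for 0 in both, where 18 and 23 had an unadjusted p under 0.05. The counts against MI-2-2 moved with single arrays: in RS4;11 they ranged from 2, without combination replicate 1 or MI-2-2 replicate 2, to 10, with 3 or 4 without combination replicates 2 or 3, EPZ004777 replicate 2 or MI-2-2 replicates 1 or 3. In SEM they were 5 without combination replicate 1, 8 without combination replicate 3, 9 without MI-2-2 replicate 3 and 11 without either DMSO array. CHAC1 in SEM gave the widest gap from MI-2-2, 5.11 and 5.54 on the combination against 8.01 and 8.87 on MI-2-2 and 7.84, 8.01 and 8.04 on EPZ004777. The change was -3.11 ± 0.26 (SE, adjusted p = 0.000536) against MI-2-2 and -2.64 ± 0.23 (SE, adjusted p = 0.000151) against EPZ004777. SLC7A11 in SEM read 9.21 and 9.60 on MI-2-2, and the combination stood below it (change -1.86 ± 0.17 (SE, adjusted p = 0.000834)). INHBE in SEM read 6.10 and 6.48 on the combination and 8.96, 9.13 and 9.15 on EPZ004777 (change -2.79 ± 0.17 (SE, adjusted p = 2.62e-05)), and ATF5 there read 11.76, 11.60 and 11.60 on EPZ004777 (change -3.01 ± 0.13 (SE, adjusted p = 5.85e-06)). In each of these 4 genes no array on the combination reached the single compound's arrays. SEM's actin measure, 1.83 to 1.93 on the combination and 1.83 to 1.89 on MI-2-2, was alike in that pair, and with it as a covariate CHAC1 and SLC7A11 kept their calls against MI-2-2.

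In RS4;11 the largest gaps from both compounds were those of TRIB3 and CHAC1. TRIB3 read 7.07, 6.79 and 6.66 on the combination, 8.79, 8.59 and 8.24 on EPZ004777 and 7.58, 7.64 and 7.43 on MI-2-2. CHAC1 read 6.18, 5.94 and 6.64 on the combination, 8.15, 7.89 and 7.71 on EPZ004777 and 6.74, 6.87 and 7.22 on MI-2-2. For both genes every array on the combination was below every array on either compound. The combination differed from EPZ004777 by -1.70 ± 0.14 (SE, adjusted p = 1.05e-05) for TRIB3 and -1.66 ± 0.18 (SE, adjusted p = 8.81e-05) for CHAC1, and from MI-2-2 by -0.71 ± 0.14 (SE, adjusted p = 0.00735) and -0.69 ± 0.18 (SE, adjusted p = 0.0341). The CHAC1 call against MI-2-2 was lost without combination replicate 1 or 2, EPZ004777 replicate 2 or MI-2-2 replicate 2 or 3 (adjusted p up to 0.120).

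**Figure D4:**
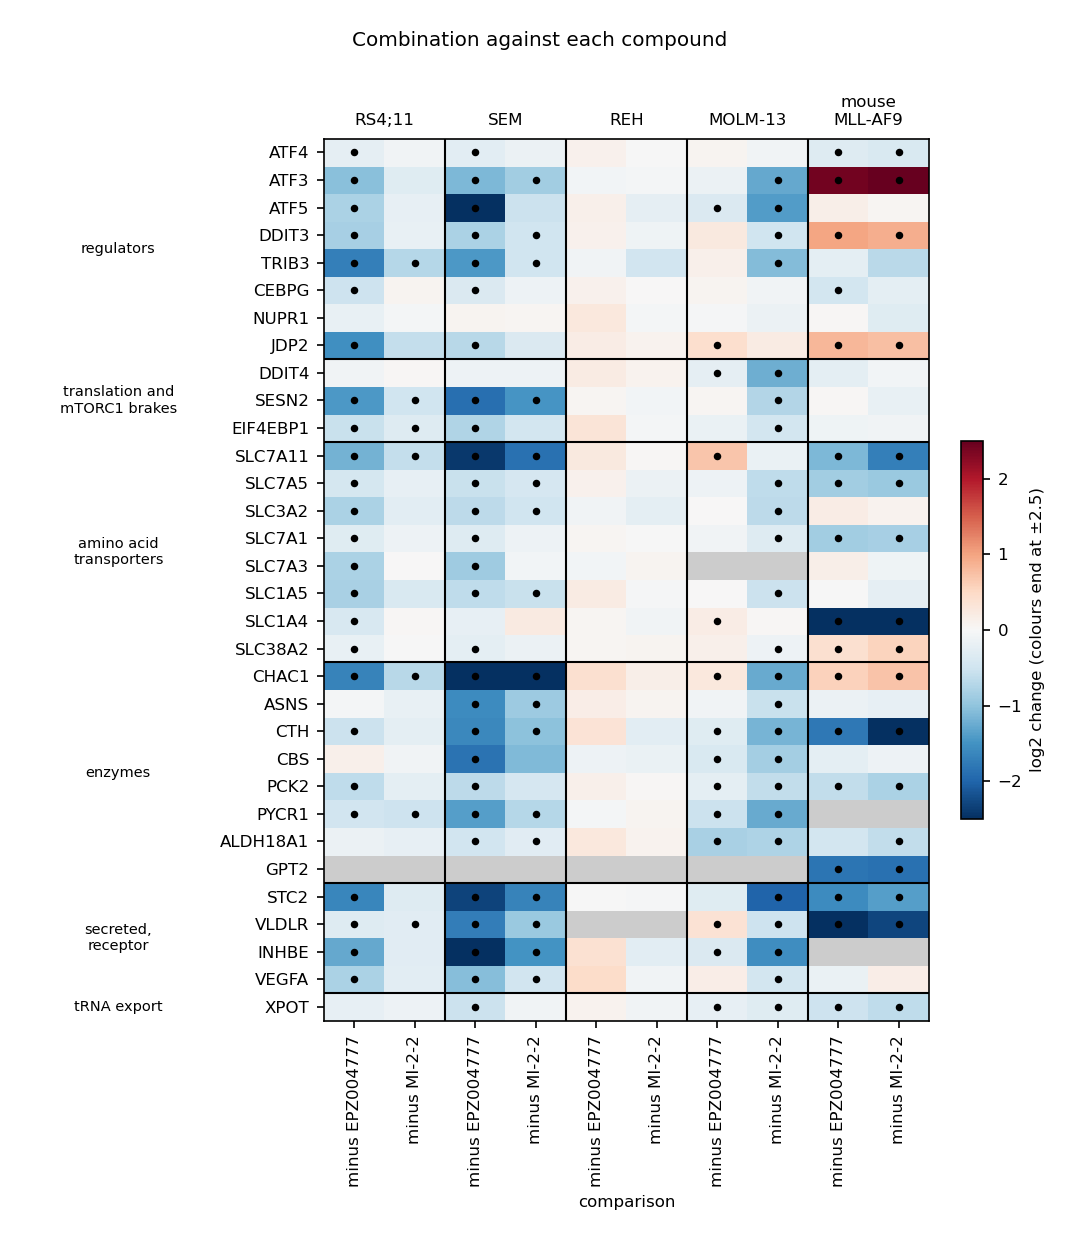
Log2 change of each gene (rows) on the combination against EPZ004777 and against MI-2-2 (columns) in the 5 cell models, with blue for lower, red for higher, dots for calls and grey for genes not analysed or removed by the filter. RS4;11 and SEM have 25 and 28 dots against EPZ004777, 7 and 17 against MI-2-2, REH has none, and in MOLM-13 the order turns, with 14 dots against EPZ004777 and 24 against MI-2-2.

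REH, the line without a KMT2A fusion, gave few calls at the same doses and duration. Its DMSO arrays stood apart from each other, with root mean square distances over genes from their group mean of 0.25, 0.18 and 0.25, against 0.09 to 0.14 on the treated arrays, and actin 3' minus 5' signals of 3.11, 2.75 and 3.65, against 2.36 to 2.87. The B lineage sum was 51.6 to 53.0 on the combination and 51.7 to 56.9 on DMSO. Without DMSO replicates 1 and 3, left out after the data were seen, 1 gene was called for the combination, 1 for EPZ004777 and 0 for MI-2-2. On the combination 2 of 30 genes fell, TRIB3 and DDIT3, and 0 rose (2.93% and 4.10% of all genes), and the median change was -0.02 beside 0.00. TRIB3 read 8.87, 9.13 and 9.50 on the combination and 9.96, 10.31 and 10.67 on DMSO, with no overlap (change -1.15 ± 0.18 (SE, adjusted p = 0.00204)). DDIT3 read 9.30, 9.37 and 9.65 on the combination and 9.88, 9.73 and 9.95 on DMSO (change -0.41 ± 0.11 (SE, adjusted p = 0.0391)), also apart, but its call was lost without any of 8 single arrays (adjusted p up to 0.171), among them combination replicates 1 and 2 and DMSO replicates 1 and 3. ATF4 read 13.72, 13.73 and 13.71 on the combination and 13.64, 13.70 and 13.64 on DMSO, a change of 0.06 ± 0.07 that was not called. CHAC1 had signals of 9.36, 9.62 and 9.75 on the combination and 8.42, 9.01 and 9.41 on DMSO, which overlap (change 0.63 ± 0.21). The median SE of these genes was 0.115 in REH, 0.115 in RS4;11 and 0.109 in SEM for the combination against DMSO.

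On EPZ004777 REH gave 3 falls of 30 (1.13% of all genes) and 0 rises (2.82%). TRIB3 read 9.16, 9.27 and 9.33 on EPZ004777 (change -1.06 ± 0.18 (SE, adjusted p = 0.00465)), DDIT3 9.31, 9.45 and 9.21 (change -0.53 ± 0.11 (SE, adjusted p = 0.0166)), and INHBE changed by -0.52 ± 0.10. TRIB3 was apart from DMSO in every array, while the calls of DDIT3 and INHBE were both lost without EPZ004777 replicate 1 or 3 (adjusted p up to 0.0801 and 0.0747). MI-2-2 gave 1 rise, CTH (0.396% of all genes), and 0 falls (0.850%). CTH read 7.98, 7.93 and 7.89 on MI-2-2 and 7.40, 7.38 and 7.62 on DMSO (change 0.47 ± 0.09 (SE, adjusted p = 0.0280)), with no overlap, and this call was lost without combination replicate 2, EPZ004777 replicate 1, DMSO replicate 1 or any MI-2-2 array (adjusted p up to 0.140). The combination was called neither lower nor higher than EPZ004777 (0.0432% and 0.0648% of all genes) or MI-2-2 (0.180% and 1.63%) for any of the 30 genes in limma, with 7 and 4 at an unadjusted p under 0.05. REH DMSO replicate 3 had a GAPDH 3' minus 5' signal of 1.08, against 0.407 to 0.593 on the treated arrays. Without that array the counts were 5 for the combination and 3 for MI-2-2. They were 1 for EPZ004777 without its replicate 1 or 3, 1 for the combination without its replicate 1 or 2, EPZ004777 replicate 1 or any MI-2-2 array, 0 for MI-2-2 without the arrays named for CTH other than DMSO replicate 1 and 2 without that array, and 1 for the combination against EPZ004777 without DMSO replicate 1. With the GAPDH measure as a covariate, added after the data were seen, they were 6 for the combination, 5 for EPZ004777 and 2 for MI-2-2. Of all 13888 genes, 1188, 1003 and 146 were called in that fit, in the same order.

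The difference between the lines was tested directly as the mean change in RS4;11 and SEM minus the change in REH, in a fit of their 32 arrays that also holds VLDLR. For the combination 26 of 31 genes were lower by this measure and 0 higher (10.6% and 10.0% of all genes), with a median difference of -0.79 beside -0.02. The measure averages RS4;11 and SEM, so a call need not hold for both lines. CBS, called lower, changed by -0.11 in RS4;11, -1.97 in SEM and -0.10 in REH, and ASNS, also called, by -0.02, -1.61 and 0.32. For MI-2-2 17 were lower and 0 higher (5.73% and 7.93%), and for EPZ004777 0 were lower and 3 higher (2.77% and 2.49%). The largest differences on the combination were those of CHAC1, -3.41 ± 0.29 (SE, adjusted p = 3.79e-09), SLC7A11, -2.25 ± 0.14 (SE, adjusted p = 1.46e-11), and SESN2, -1.99 ± 0.26 (SE, adjusted p = 2.86e-06). In RS4;11 and SEM all 3 fell, with mean changes of -2.78, -2.04 and -2.10, beside 0.63, 0.21 and -0.11 in REH, none of them called. ATF4 mRNA differed by -0.37 ± 0.06 (SE, adjusted p = 0.000121). Genes without a called difference were NUPR1, SLC1A4, SLC3A2, SLC7A5 and VLDLR. On MI-2-2 the largest were ATF5, -1.79 ± 0.12 (SE, adjusted p = 2.29e-10), CHAC1, -1.37 ± 0.29 (SE, adjusted p = 0.00217), and CTH, -1.13 ± 0.12 (SE, adjusted p = 8.68e-07). On EPZ004777 the 3 genes called higher were TRIB3, 0.80 ± 0.20 (SE, adjusted p = 0.0161), and INHBE, 0.73 ± 0.16 (SE, adjusted p = 0.00803), which had fallen in REH, and SLC1A4, 0.34 ± 0.10 (SE, adjusted p = 0.0489). SLC1A4 lost its call without any of 29 of the 32 single arrays and on other choices of probe set, TRIB3 lost it without REH EPZ004777 replicate 1 (adjusted p = 0.0525), and without that array the count was 1, against 5 without REH DMSO replicate 3. RS4;11 and SEM differ from REH in more than the fusion, SEM also in its medium, and these differences cannot be told apart from it.

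**Figure D5:**
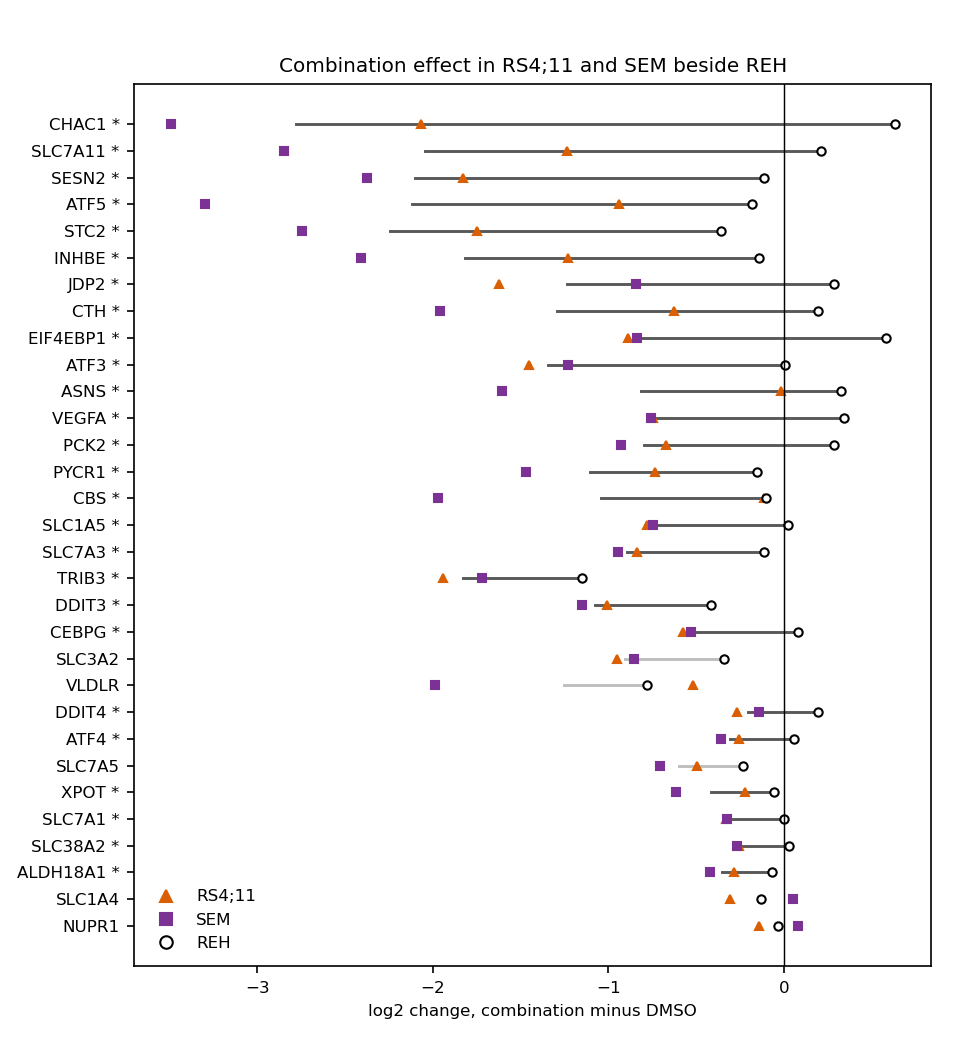
Log2 change on the combination against DMSO in RS4;11 (triangles), SEM (squares) and REH (open circles), with a bar from the mean of RS4;11 and SEM to REH, dark and starred where the difference was called. The bars of 26 of the 31 genes are starred, and CHAC1, SLC7A11 and SESN2 have the longest.

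In MOLM-13 the order of the compounds was the other way round. EPZ004777 alone lowered 26 of 30 genes and raised 0 (12.5% and 15.3% of all genes), with a median of -0.54 beside 0.03. MI-2-2, at 3 µM for 4 days here, lowered 5 and raised 4 (8.36% and 10.2%), with a median of -0.03. The combination lowered 25 and raised 3 (25.8% and 23.7%), with a median of -0.64 beside 0.00. Since the MI-2-2 dose and the duration differ from those of the other human lines, no difference between them was tested. Of the 30 genes tested in RS4;11, SEM and MOLM-13, 20 were called lower on the combination in all 3 lines, beside 2.90% of all genes tested in all 3.

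STC2 had the largest fall in MOLM-13. It read 8.04, 8.41 and 8.24 on the combination, 8.39, 8.41 and 8.76 on EPZ004777, 10.32, 10.21 and 10.15 on MI-2-2 and 10.36, 10.12 and 10.57 on DMSO. Arrays with EPZ004777, alone or combined, lay below every array without it, with changes of -2.12 ± 0.13 (SE, adjusted p = 3.69e-07) for the combination and -1.83 ± 0.13 (SE, adjusted p = 4.57e-06) for EPZ004777, and -0.12 ± 0.13 for MI-2-2. INHBE read 8.46, 8.62 and 8.39 on the combination, 8.88, 8.75 and 8.95 on EPZ004777, 10.24, 9.84 and 10.07 on MI-2-2 and 10.44, 10.48 and 10.67 on DMSO, where no group overlaps DMSO. Its changes were -2.04 ± 0.11 (SE, adjusted p = 7.38e-08), -1.67 ± 0.11 (SE, adjusted p = 1.57e-06) and -0.48 ± 0.11 (SE, adjusted p = 0.00946). ATF5 read 9.23, 9.43 and 9.30 on the combination and 10.95, 10.86 and 11.19 on DMSO, apart in all arrays (change -1.68 ± 0.09 (SE, adjusted p = 6.44e-08)). ATF4 itself read 13.94, 13.99 and 13.93 on the combination and 13.95, 14.001 and 13.98 on DMSO and was not called (-0.03 ± 0.04). DDIT4, the brake on mTORC1, fell in MOLM-13, with changes of -1.45 ± 0.06 on the combination and -1.23 ± 0.06 on EPZ004777.

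A few MOLM-13 genes rose. SLC7A11 read 11.91, 12.01 and 11.86 on the combination, 11.16, 11.20 and 11.37 on EPZ004777, 12.08, 11.999 and 12.18 on MI-2-2 and 11.59, 11.60 and 11.67 on DMSO. It was above DMSO in every array on the combination (0.31 ± 0.07 (SE, adjusted p = 0.00353)) and on MI-2-2 (0.46 ± 0.07 (SE, adjusted p = 0.00107)) and below it on EPZ004777 (-0.38 ± 0.07 (SE, adjusted p = 0.00241)), and the combination stood above EPZ004777 by 0.68 ± 0.07 (SE, adjusted p = 4.24e-05). The combination call was lost in the mean of all its probe sets (adjusted p = 0.508). CHAC1 read 10.19, 10.22 and 10.37 on MI-2-2 and 9.65, 9.91 and 9.93 on DMSO, a rise with no overlap (change 0.43 ± 0.09 (SE, adjusted p = 0.00558)), while it fell, with a change of -0.82 ± 0.09 on the combination. JDP2 rose by 0.62 ± 0.09 on the combination, at 8.999, 9.04 and 9.25 against 8.72, 8.59 and 8.71 on EPZ004777 (change 0.42 ± 0.09 (SE, adjusted p = 0.00525)). SLC1A4 rose by 0.12 ± 0.04 on the combination, a call lost without any 1 of 9 arrays (adjusted p up to 0.109). On MI-2-2 the 4 rises were SLC7A11, CHAC1, JDP2 and ASNS, and the largest fall was that of NUPR1, at 7.82, 8.07 and 7.92 against 8.47, 8.46 and 8.37 on DMSO (change -0.50 ± 0.07 (SE, adjusted p = 0.000777)), followed by INHBE.

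Against EPZ004777 the MOLM-13 combination was lower for 9 of 30 genes and higher for 5 (18.9% and 14.4% of all genes), and against MI-2-2 it was lower for 24 and higher for 0 (21.7% and 17.9%). The falls beyond EPZ004777 were led by the proline synthesis enzymes. ALDH18A1 read 10.07, 10.23 and 10.28 on the combination and 10.92, 11.12 and 10.99 on EPZ004777 (change -0.82 ± 0.07 (SE, adjusted p = 1.44e-05)), and PYCR1 7.37, 7.48 and 7.48 on the combination and 7.95, 8.04 and 7.98 on EPZ004777 (change -0.55 ± 0.08 (SE, adjusted p = 0.000547)). Neither gene's arrays overlap between the groups. The gaps from MI-2-2 were largest for STC2 (-2.00 ± 0.13 (SE, adjusted p = 1.6e-06)) and INHBE (-1.56 ± 0.11 (SE, adjusted p = 1.64e-06)). The actin 3' minus 5' signal was 0.957 to 0.970 on the combination, 0.873 to 1.04 on EPZ004777 and 1.00 to 1.14 on DMSO in MOLM-13.

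In the mouse MLL-AF9 cells the genes did not move as a block on the probe sets used. The combination raised 6 of 30 and lowered 11, beside 28.5% of all genes called higher and 36.2% called lower, and the median change was -0.04 beside -0.10. Of the 20 genes lower in all of RS4;11, SEM and MOLM-13, 18 were tested in the mouse cells, and 7 of these fell on the combination there. Some genes not called had lower changes on other probe sets: Eif4ebp1 (-0.80 and -0.46 against -0.03), Slc1a5 (-0.72 against -0.01) and Asns (-0.52 against -0.05). So had Cbs (-0.54 against -0.19), Sesn2 (-0.37 against 0.03) and Trib3 (-0.01 against 0.28). Those of Aldh18a1 ran from -1.51 to -0.42 (against -0.58), and that of Slc7a11 was higher (-0.14 against -0.57). These other probe sets were not tested singly. Slc1a4, the neutral amino acid carrier, read 8.45, 8.24 and 7.95 on the combination and 11.60, 11.44 and 11.46 on DMSO, a 9.75-fold fall (change -3.28 ± 0.14 (SE, adjusted p = 1.17e-08)). Atf3 moved the opposite way, at 8.81, 9.60 and 9.55 on the combination and 6.66, 6.72 and 6.62 on DMSO, a 6.29-fold rise (change 2.65 ± 0.18 (SE, adjusted p = 3.41e-07)). Vldlr read 7.58, 7.24 and 6.56 on the combination and 9.30, 8.81 and 8.66 on DMSO (change -1.80 ± 0.28 (SE, adjusted p = 0.000200)). In all 3 genes every array on the combination lay on the same side of every DMSO array. Atf4 read 13.40, 13.17 and 13.16 on the combination and 13.50, 13.50 and 13.50 on DMSO, also apart (change -0.25 ± 0.09 (SE, adjusted p = 0.0235)), and its call was lost without combination replicate 2 or 3 or any DMSO array (adjusted p up to 0.0735). The other Atf4 probe sets disagreed in sign, with changes of 0.27 and -0.28. The mouse stromal sum was 19.1 to 19.6 on the combination and 13.0 to 13.956 on DMSO, with a Col1a1 change of 6.38, and the B lineage sum was 30.2 to 31.97 and 33.9 to 34.6; their part was not tested. The combination arrays were 0.50, 0.27 and 0.31 from their group mean (root mean square over genes), against 0.10 to 0.19 on the other arrays. Mouse combination replicates 2 and 3 had GAPDH 3' minus 5' signals of 1.504 and 2.05, against 0.440 to 0.654 on the other treatments and DMSO. Without both of them the changes were -3.05 for Slc1a4, 2.14 for Atf3 and -1.34 for Vldlr.

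Besides Atf3, the genes higher on the combination in the mouse cells were Jdp2 (1.44 ± 0.16), Ddit3 (0.96 ± 0.16), Chac1 (0.73 ± 0.14), Slc38a2 (0.40 ± 0.13) and Vegfa (0.40 ± 0.09). The others that fell were Gpt2, a mitochondrial alanine aminotransferase (-1.65 ± 0.24), Cth (-1.54 ± 0.40), Stc2 (-0.86 ± 0.18), Slc7a1 (-0.85 ± 0.13), Slc7a5 (-0.85 ± 0.09), Xpot (-0.56 ± 0.15), Pck2 (-0.54 ± 0.13) and Cebpg (-0.36 ± 0.11). Another probe set of each of Slc38a2 and Vegfa went the other way, with -0.68 and -0.33. Slc38a2 lost its call without combination replicate 2 or 3 or DMSO replicate 2 or 3, and the calls of Slc38a2, Cebpg and Cth were lost without both combination replicates 2 and 3, whose part was not otherwise tested. Slc7a11 read 9.04, 7.01 and 7.35 on the combination and 8.73, 8.18 and 8.21 on DMSO, where replicate 1 of the combination lies above DMSO and the other arrays below it, and it was not called (-0.57 ± 0.41). Without combination replicates 2 and 3 its change was 0.66 (adjusted p = 0.0313).

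The single compounds called few mouse genes. Their SE came from a spread shared by all mouse groups, the more scattered combination arrays included. With the GAPDH measure as a covariate the median SE over all genes for EPZ004777 was 0.109 instead of 0.155. How far the shared spread limited the calls was not tested. EPZ004777 raised 3 of 30 and lowered 0 (4.22% and 1.38% of all genes). Stc2 read 11.09, 10.80 and 10.86 on EPZ004777 and 10.38, 10.24 and 10.04 on DMSO (change 0.70 ± 0.18 (SE, adjusted p = 0.0433)), Vegfa 10.57, 10.44 and 10.65 on EPZ004777 and 9.88, 10.03 and 10.03 on DMSO (change 0.57 ± 0.09 (SE, adjusted p = 0.00310)), and Ddit4 changed by 0.54 ± 0.13. The Stc2 and Ddit4 calls were lost without single arrays of EPZ004777, DMSO and other groups (adjusted p up to 0.185 and 0.184), and the count was 1 without any EPZ004777 or DMSO array or MI-2-2 replicate 2, and 6 without combination replicate 1. MI-2-2 raised 2 and lowered 0 (3.24% and 2.02%). Cth read 9.54, 9.94 and 10.04 on MI-2-2 and 9.12, 7.58 and 7.76 on DMSO (change 1.69 ± 0.40 (SE, adjusted p = 0.0346)), and Jdp2 11.70, 11.96 and 11.88 on MI-2-2 and 11.08, 11.22 and 11.19 on DMSO (change 0.69 ± 0.16 (SE, adjusted p = 0.0302)). Both were apart from DMSO, and both calls were lost without any MI-2-2 array (adjusted p up to 0.1497 for Cth and 0.128 for Jdp2). The count for MI-2-2 was 0 without any MI-2-2 array, EPZ004777 replicate 1 or DMSO replicate 2 or 3, and 4 without combination replicate 1.

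Against EPZ004777 the mouse combination was higher for 5 genes and lower for 12 (28.6% and 34.8% of all genes), and against MI-2-2 it was higher for 5 and lower for 12 (28.9% and 33.8%). Slc1a4 read 11.21, 10.91 and 11.03 on EPZ004777 and 11.20, 11.36 and 11.46 on MI-2-2, and the combination stood below them, with changes of -2.84 ± 0.14 (SE, adjusted p = 6.09e-08) against EPZ004777 and -3.12 ± 0.14 (SE, adjusted p = 2.84e-08) against MI-2-2. Atf3 read 6.91, 6.81 and 7.01 on EPZ004777 and 6.65, 6.69 and 6.59 on MI-2-2, and the combination stood above them, with changes of 2.41 ± 0.18 (SE, adjusted p = 1.03e-06) against EPZ004777 and 2.68 ± 0.18 (SE, adjusted p = 4.36e-07) against MI-2-2. Cth, which had risen on MI-2-2, read 7.02, 6.37 and 6.44 on the combination, below MI-2-2 with a change of -3.23 ± 0.40 (SE, adjusted p = 4.47e-05). Ddit3 read 10.20, 10.64 and 10.77 on the combination, 9.75, 9.63 and 9.30 on EPZ004777 and 9.52, 9.66 and 9.72 on MI-2-2, a rise of 0.98 ± 0.16 (SE, adjusted p = 0.000390) over EPZ004777 and 0.90 ± 0.16 (SE, adjusted p = 0.000674) over MI-2-2. Vldlr stood below EPZ004777, with a change of -2.56 ± 0.28 (SE, adjusted p = 1.67e-05), at 7.58, 7.24 and 6.56 on the combination and 9.57, 9.43 and 10.07 on EPZ004777.

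Other genes of the pathway, from lists outside the 32, were counted for the combination against DMSO. Of all genes, 12.4% were called lower in RS4;11, 15.2% in SEM, 2.93% in REH, 25.8% in MOLM-13 and 36.2% in the MLL-AF9 mouse cells, and 11.2%, 14.3%, 4.10%, 23.7% and 28.5% were called higher in the same order. The serine synthesis and mitochondrial one-carbon enzymes fell in 6 of 7 genes in RS4;11 and 5 of 6 in SEM. They also fell in 5 of 6 in MOLM-13 and 7 of 7 in the mouse cells. In REH 0 of 6 were called, and by limma 3 of the 6 had an unadjusted p under 0.05. The REH changes leaned upward, with a median of 0.28. The largest there were those of PSAT1 (0.49 ± 0.14), PHGDH (0.37 ± 0.16) and MTHFD2 (0.37 ± 0.14). ALDH1L2, a mitochondrial folate enzyme, led in RS4;11 (-1.47 ± 0.13 (SE, adjusted p = 1.08e-05)), MOLM-13 (-0.74 ± 0.06) and, as Aldh1l2, the mouse cells (-2.86 ± 0.13). PHGDH, the entry enzyme of serine synthesis, led in SEM (-1.20 ± 0.09 (SE, adjusted p = 6.78e-05)) and was the 1 gene of the list that rose in MOLM-13 (0.28 ± 0.07). The cytosolic aminoacyl-tRNA synthetases, which load amino acids onto tRNAs, fell in 12 of 17 genes in RS4;11, 11 of 17 in SEM, 1 of 17 in REH, 15 of 17 in MOLM-13 and 13 of 19 in the mouse cells, and none rose. The largest falls were those of GARS1 in RS4;11 (-0.75 ± 0.10 (SE, adjusted p = 0.000242)), WARS1 in SEM (-1.33 ± 0.12 (SE, adjusted p = 0.000114)) and REH (-0.62 ± 0.16 (SE, adjusted p = 0.0375)), FARSB in MOLM-13 (-0.89 ± 0.05 (SE, adjusted p = 1.63e-07)) and Farsb in the mouse cells (-2.07 ± 0.15 (SE, adjusted p = 7.21e-07)).

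Read against the same shares of all genes, chaperones of the endoplasmic reticulum and targets of XBP1 or ATF6, the other arms of the unfolded protein response, had no shared direction. Of 16 genes, 0 rose and 3 fell in RS4;11, 8 rose and 5 fell in SEM, 0 rose and 6 fell in REH, 8 rose and 1 fell in MOLM-13, and 0 rose and 7 fell in the mouse cells. CRELD2, a secreted chaperone, rose most in SEM (0.85 ± 0.12 (SE, adjusted p = 0.00120)) and MOLM-13 (0.72 ± 0.09). The largest falls were those of HERPUD1 in RS4;11 (-1.07 ± 0.07 (SE, adjusted p = 1.91e-06)), EDEM1 in SEM (-0.94 ± 0.08), HSPA5, the chief chaperone of this compartment, in REH (-0.73 ± 0.16), XBP1 in MOLM-13 (-0.55 ± 0.08) and Sdf2l1 in the mouse cells (-1.49 ± 0.12). Amino acid carriers outside the set were mixed as well, with 2 higher and 3 lower of 13 in RS4;11, 4 and 5 of 14 in SEM, 0 and 1 of 12 in REH, 4 and 4 of 13 in MOLM-13 and 4 and 8 of 14 in the mouse cells. SLC7A8, the light chain LAT2, was the largest rise in RS4;11 (0.69 ± 0.09) and SEM (0.77 ± 0.14), as was Slc7a8 in the mouse cells (2.49 ± 0.15 (SE, adjusted p = 1.33e-07)), and SLC1A3, a glutamate carrier, in MOLM-13 (1.15 ± 0.21). The largest falls were SLC43A1 in RS4;11 (-0.66 ± 0.15) and SEM (-1.29 ± 0.14), SLC36A4 in REH (-0.36 ± 0.09), SLC7A2 in MOLM-13 (-0.96 ± 0.06) and Slc1a3 in the mouse cells (-3.71 ± 0.14 (SE, adjusted p = 5.42e-09)). Among the kinases that phosphorylate eIF2α, the factor itself and its phosphatase subunits, 1 rose and 1 fell of 8 in RS4;11 and in SEM, 0 of 8 were called in REH (unadjusted p under 0.05 in 1 by limma), 0 and 4 in MOLM-13, and 3 and 0 of 7 in the mouse cells. PPP1R15A, the phosphatase subunit GADD34 and itself an ATF4 target, fell in RS4;11 (-0.79 ± 0.12 (SE, adjusted p = 0.000592)) and SEM (-0.74 ± 0.15 (SE, adjusted p = 0.00825)). EIF2AK3, the kinase PERK, was the rise in RS4;11 (0.45 ± 0.09) and, as Eif2ak3, the largest in the mouse cells (0.71 ± 0.13), while EIF2S1, eIF2α, rose in SEM (0.25 ± 0.08) and fell (-0.65 ± 0.04) in MOLM-13.

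Where a called gene had other probe sets, these mostly had the same sign. For the combination against DMSO this held for 24 of 25 other probe sets in RS4;11, 24 of 24 in SEM, 25 of 27 in MOLM-13 and 21 of 24 in the mouse cells. With genes not called included, it held for 25 of 26, 24 of 28, 27 of 29 and 32 of 37 in the same order.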

How the data were processed

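Each deposited value is the log2 signal of a probe set. The authors used RMA from the affy package under R 3.0.2, per the submitters' processing notes, on RNA amplified by Nugen Ovation chemistry, per the labels. RMA puts arrays processed together on a common distribution, so changes are relative to the other genes of an array. Of 54675 human probe sets 41091 had 1 symbol (41037 updated by Entrez identifier), 1801 several and 11783 none or were controls, and the mouse array had 34945, 932 and 9224 such probe sets among 45101. A gene was represented by its brightest probe set, judged by the mean of the 44 human or 12 mouse arrays, and was kept in a cell model if 2 or more arrays had it over their percentile 40. Each model was fitted alone with lmFit and eBayes of limma 3.58.1, run in R 4.3.3, with 1 coefficient for each group of 2 or 3 arrays, and the line difference in a fit of the 32 RS4;11, SEM and REH arrays. Calls have a Benjamini-Hochberg adjusted p under 0.05 over all genes of a fit, with no threshold on the change. The script was tested on simulated data. Array quality was described by the difference between 3' and 5' control probe sets of actin and GAPDH.

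Values per array are given, per model, for the 3 called genes with the largest change on the combination whose arrays lie apart from DMSO, for ATF4, and for up to 2 rises and 2 falls of the other comparisons. For the line difference the 3 largest per treatment were named, and for each other list the largest rise and fall. Further genes were given as changes by role. The genes and lists were chosen with earlier results of these data known. The p-values measure the spread between these samples. The 7 alternatives first chosen were no filter, 2 other choices of probe set, quantile normalization again, the replicate number as a block, a fit of all 44 human arrays, and leaving out each array. The covariate fits and the fits without 2 arrays of REH or the mouse cells were added after seeing the data. Groups of at most 3 arrays were not put to Dixon's test, and each array's distance from its group mean was described instead.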

Additional observations from a re-analysis of the deposited data

Results flagged for a closer look

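The effect of treatment differed between the KMT2A-AFF1 lines and REH in a direct test of the difference, mean change in RS4;11 and SEM minus change in REH, for many genes, and the 3 largest per treatment are given. On the combination CHAC1 differed by -3.41 (mean change -2.78 in RS4;11 and SEM, 0.63 in REH), SLC7A11 by -2.25 (-2.04 against 0.21) and SESN2 by -1.99 (-2.10 against -0.11). On MI-2-2 ATF5 differed by -1.79 (-1.75 in RS4;11 and SEM, 0.04 in REH), CHAC1 by -1.37 (-0.88 against 0.49) and CTH by -1.13 (-0.66 against 0.47). On EPZ004777 TRIB3 differed by 0.80 (-0.26 in RS4;11 and SEM, -1.06 in REH), INHBE by 0.73 (0.21 against -0.52) and SLC1A4 by 0.34 (0.17 against -0.17). Without REH DMSO replicates 1 and 3 the INHBE and SLC1A4 differences were no longer called, while those of the combination and of MI-2-2 named here were.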

How the results depend on the processing

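Of 17242 recomputed changes of single genes, 16400 kept their direction and side of the threshold, 584 lost a call, 235 gained one and 23 reversed. The counts below are of called ATF4-set genes. When each array was left out in turn, the counts in RS4;11 ranged from 0 to 1 for EPZ004777, 12 to 22 for MI-2-2, 21 to 27 for the combination, 22 to 25 for the combination against EPZ004777 and 2 to 10 against MI-2-2. In SEM the ranges were 0 to 5, 10 to 19, 25 to 28, 24 to 28 and 5 to 17 in the same order of comparisons, in REH 1 to 4, 0 to 3, 1 to 5, 0 to 1 and 0 to 0, in MOLM-13 25 to 26, 6 to 9, 27 to 28, 10 to 16 and 23 to 24, and in the mouse cells 1 to 6, 0 to 4, 15 to 21, 15 to 20 and 16 to 18. For RS4;11 and SEM minus REH they were 1 to 5 for EPZ004777, 14 to 20 for MI-2-2 and 24 to 28 for the combination. Where a group of 2 lost an array, the lone sample is assumed to vary like the other groups. The mean of all probe sets gave 1 call for EPZ004777 in RS4;11, 2 for EPZ004777 in SEM and 2 for MI-2-2 in REH. The fit of all 44 human arrays gave 4 calls for the combination against MI-2-2 in RS4;11, 5 for EPZ004777 in SEM, 7 for EPZ004777, 4 for MI-2-2, 7 for the combination and 1 for the combination against EPZ004777 in REH, and 8 for the combination against EPZ004777 in MOLM-13. With the replicate block the count was 3 for the combination against MI-2-2 in RS4;11, 0 for EPZ004777 in SEM, 0 for MI-2-2 and 1 for the combination in REH, and 1 each for EPZ004777 and MI-2-2 in the mouse cells, and no other count moved by over 1.5 times. Same-numbered samples had correlations of deviations from -0.47 to 0.48. In groups of 2 or 3 arrays such values cannot decide whether the numbers pair samples, which is not known.

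Other alternatives were chosen after seeing the data. With the actin measure as a covariate the SEM counts were 0 for EPZ004777, MI-2-2, the combination and the combination against EPZ004777. Of all 13967 genes, 329, 0, 14 and 18 were called there, in the same order. The direction turned there for MI-2-2 in DDIT3 (0.14), ASNS (0.31), SLC3A2 (0.21), STC2 (0.27), SESN2 (0.29), CTH (0.15), INHBE (0.62) and PCK2 (0.26), for the combination in SLC7A5 (0.18), SLC1A5 (0.18), CBS (2.14) and JDP2 (0.38), and for the combination against EPZ004777 in SLC7A5 (0.21), SLC1A5 (0.17), CBS (1.70), JDP2 (0.37) and PCK2 (0.00021), none of them called; the measure differs between these groups, and the median SE for MI-2-2 over all genes was 0.545 with it and 0.104 without it. Without REH DMSO replicates 1 and 3 the REH counts were 1 for EPZ004777, 0 for MI-2-2, 1 for the combination and 2 for the combination against EPZ004777, and the line difference for EPZ004777 was 1. With the GAPDH measure as a covariate they were 5 for EPZ004777, 2 for MI-2-2 and 6 for the combination in REH, and 5 for EPZ004777 in the mouse cells. Calls over all genes in these fits were 1003, 146 and 1188 of 13888 in REH and 1435 of 13365 in the mouse cells. Without mouse combination replicates 2 and 3 the mouse counts were 6 for EPZ004777 and 4 for MI-2-2. In the mouse cells the direction also turned for Vegfa, combination against MI-2-2 (-0.29 in the mean of all probe sets), Slc1a5, which was not called, when single combination replicates were left out (-0.19 to 0.33 against DMSO, -0.19 to 0.32 against EPZ004777), and Slc7a11 without combination replicates 2 and 3 (0.66 against DMSO and 0.11 against EPZ004777) or with the GAPDH covariate (0.027 against EPZ004777); the cause was not tested. Detection values per probe set were not used here, so how far a fall near background is understated is not known here.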
